A study of Mus musculus with 8 samples.

Results

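The immediate early and dissociation stress genes are a list of 41 genes. Many are known for transcripts that rise soon after a stimulus, mechanical or enzymatic handling, or protein damage. Others, such as Hspa8 and Jund, are also kept on without a stimulus. They were read from every probe set annotated to exactly 1 of these genes, 81 probe sets in all, out of 18193 named genes on the array. All 41 had at least 1 probe set, and 19 had only 1. The series holds 8 single-colour arrays of total RNA from 2 cell types sorted out of the normal colon of healthy mice (strain C57BL/6J, 8 weeks old): 4 arrays of lymphatic endothelial cells (LEC), which line the vessels that drain tissue, and 4 of blood vascular endothelial cells (BEC), which line arteries, capillaries and veins. LEC and BEC came from the same 4 mice, 3 female and 1 male, so that replicate n of both cell types is mouse n. No transgene, treatment or disease separates the groups, and the 4 pairs are those the study kept for the quality of their RNA. Both went through one isolation: a 3 min wash in dithiothreitol, 15 min of rotation with 8 mg/ml collagenase IV and 0.5 mg/ml DNase I, straining, staining for CD31, podoplanin and CD45.2, and a sort straight into lysis buffer. No array of undigested colon was analysed here, so a level present in the tissue and a level reached during isolation cannot be told apart.

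Immediate early genes need no new protein to be switched on. Kinases of the MAP kinase cascades activate factors already bound at their promoters, such as the serum response factor with its partners, and the first products include the Fos and Jun proteins, which pair to form AP-1, and the zinc finger factor EGR1. A second set of early products closes the response: dual specificity phosphatases such as DUSP1 inactivate MAP kinases, ZFP36 (tristetraprolin) speeds the decay of AU-rich mRNAs, IκBα (Nfkbia) and A20 (Tnfaip3) restrain NF-κB, and SOCS3 restrains cytokine receptors. Heat shock genes are driven separately, by heat shock factor 1 on unfolded proteins. In preparations of single cells these programmes are known to start during warm enzymatic digestion.

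The 250 bases before the annotated start of the 3 members whose signal was called different between LEC and BEC (below) are shown with the matches to the motifs these programmes use. They come from the RefSeq promoter table of GRCm38.p6 and are written 5′ to 3′ on the gene's own strand, with matches in capitals. For Zfp36 the window is chr7:28379229-28379478 on the minus strand. For Hspb1 it is chr5:135887669-135887918 on the plus strand. For Maff, which has 3 starts in the table, it is chr15:79346371-79346620 on the plus strand, before the most upstream start.
Zfp36: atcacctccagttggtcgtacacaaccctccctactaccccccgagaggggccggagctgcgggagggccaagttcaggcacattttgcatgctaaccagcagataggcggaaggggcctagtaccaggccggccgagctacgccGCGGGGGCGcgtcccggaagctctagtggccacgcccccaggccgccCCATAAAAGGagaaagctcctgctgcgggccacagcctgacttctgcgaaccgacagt
Hspb1: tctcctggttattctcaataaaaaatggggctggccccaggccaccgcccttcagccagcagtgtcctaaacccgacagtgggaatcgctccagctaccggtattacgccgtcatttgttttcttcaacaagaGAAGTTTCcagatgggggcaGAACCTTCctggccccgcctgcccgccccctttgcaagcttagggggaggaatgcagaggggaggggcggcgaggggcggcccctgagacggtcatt
Maff: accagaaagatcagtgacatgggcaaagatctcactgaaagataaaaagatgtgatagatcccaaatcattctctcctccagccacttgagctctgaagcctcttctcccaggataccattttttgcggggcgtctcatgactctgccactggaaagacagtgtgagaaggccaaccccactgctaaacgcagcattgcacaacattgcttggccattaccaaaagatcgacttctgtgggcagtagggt

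In Zfp36 the capitals mark a CArG box, the letters read by the serum response factor, 58 to 49 bases before the start, and a match to the EGR motif GCGNGGGCG 105 to 97 bases before it. In Hspb1 they mark the heat shock motif GAANNTTC at 117 to 110 and at 97 to 90 bases before the start. The Maff window held none of the letters searched, and neither did that of Klf6. Of the 41 genes, 35 had a promoter in the table, and both strands were searched. The EGR motif stood in 9 of the 35 (25.7%), against 4.63% of the 27025 promoters in the table, and GAANNTTC in 5 (14.3%), against 6.79%. Those 5 were Hspa1a, Hspa1b, Hspb1, Fosl2 and Jun. The CArG box was in 2, Zfp36 and the phosphatase gene Dusp5, against 1.41% of all promoters. TGANTCA, the AP-1 site, was in 2 of 35 (5.71%), against 6.85%, and TGACGTCA, the cyclic AMP response element, in 2, against 1.60%. TTCNNGAA was in 1, Hsph1, against 7.18%, and the TATA box TATAAA in 7 (20.0%), against 12.98%. These matches are letters in a window and do not show that a factor was bound.

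Most members were detected in both cell types, among them genes kept on without a stimulus, such as Hspa8 and Jund. Signals are on the log2 scale, and the background level of an array is taken as the 95th percentile of its 27 bacterial control probe sets. It was 4.88, 4.32, 3.83 and 4.01 on LEC replicates 1 to 4, and 4.52, 3.43, 3.43 and 3.43 on BEC replicates 1 to 4. Within each mouse the level was higher in LEC, so counts above background of dim genes meet a stricter cut in LEC than in BEC. By the brightest probe set of each gene, 31 of the 41 genes (75.6%) lay above background on all 8 arrays, against 32.8% of all 18193 named genes. In LEC, 35 to 37 of the 41 were above background on an array, and in BEC 34 to 40. No member was below background on all 8 arrays. The median percentile of the members among all named genes of an array was 77.3 to 82.5 in LEC and 81.1 to 87.7 in BEC. Probe sets differ in how brightly they report, so these positions describe the list and do not order its genes. As in any bulk RNA of sorted cells, a difference in level may stand for fewer cells that express a gene or for less RNA per cell, which cannot be told apart.

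**Figure D1:**
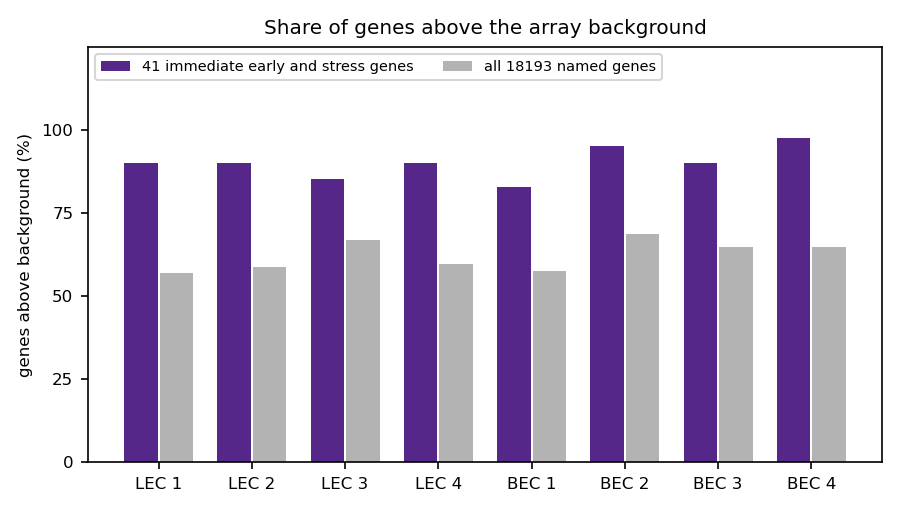
Percent of genes above the array's background level (vertical axis, from 0) on each of the 4 LEC and 4 BEC arrays (horizontal axis), for the 41 immediate early and stress genes and for all 18193 named genes. The members run from 82.9% on BEC 1 to 97.6% on BEC 4, and all genes from 56.9% on LEC 1 to 68.6% on BEC 2.

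**Figure D2:**
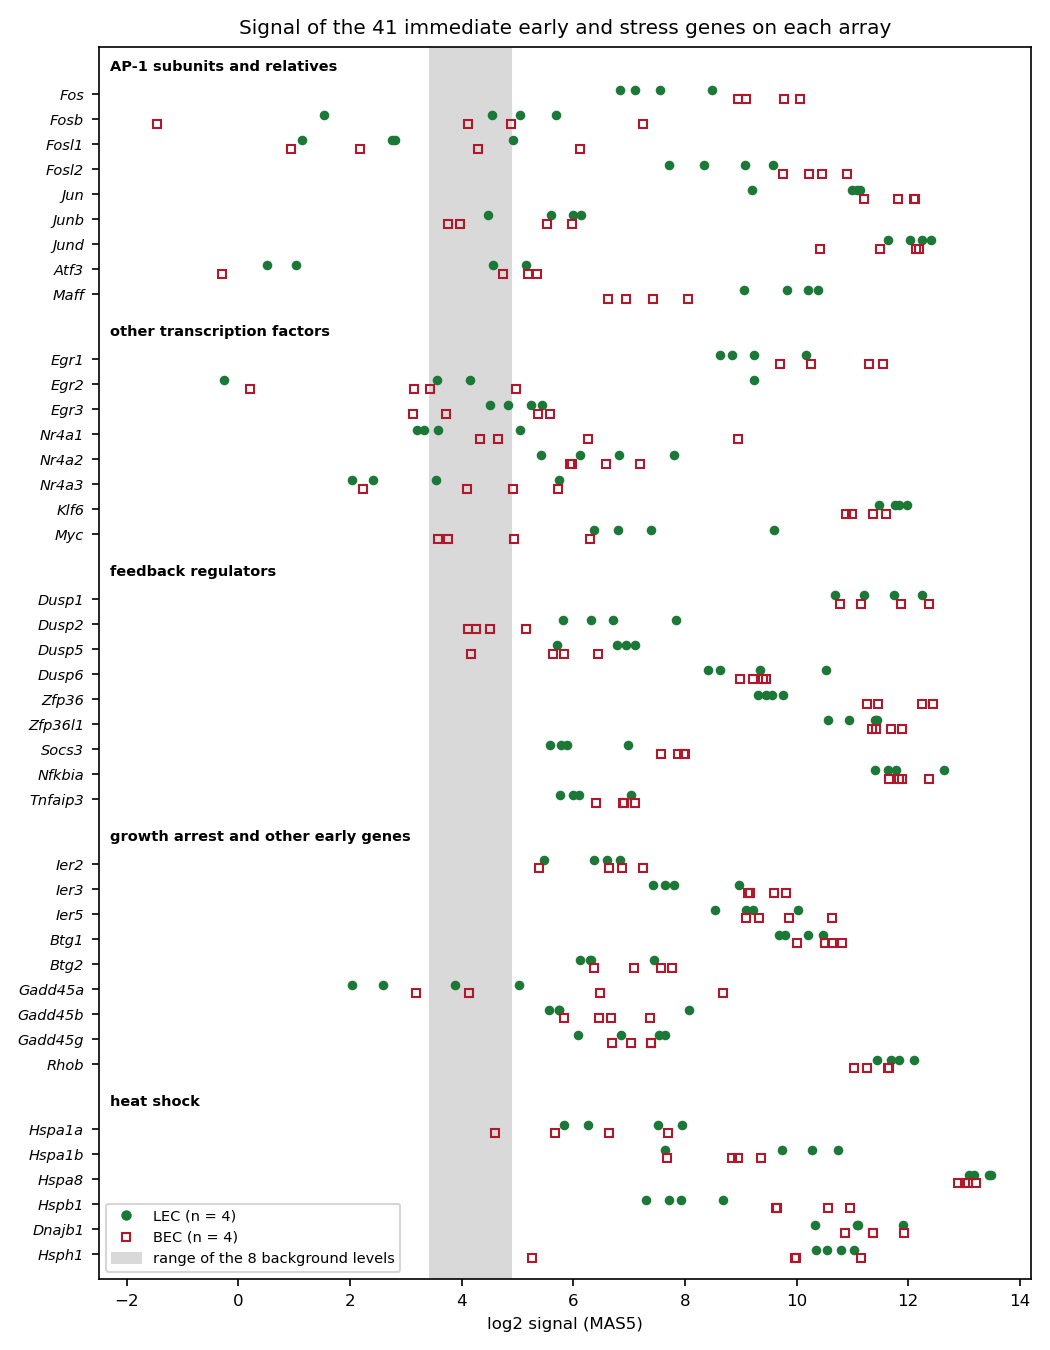
Log2 signal (horizontal axis) of the probe set taken for each of the 41 genes, by role, on each array; filled circles are the 4 LEC arrays, open squares the 4 BEC arrays, and the grey band spans the 8 background levels. Most genes lie right of the band in both cell types, whereas Fosb, Fosl1, Atf3, Egr2, Egr3, Nr4a1, Nr4a3 and Gadd45a straddle it. Junb, Myc, Dusp2, Dusp5 and Hspa1a reach into it.

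Few members passed the test between the cell types, although more had signals that did not overlap. Of the 39 members that passed the filter on dim signals, 1 was higher in LEC (Maff) and 2 were lower in LEC (Zfp36 and Hspb1) by limma with Benjamini-Hochberg adjustment over all 13259 genes tested, at an adjusted p under 0.05. That is 7.69% of the members, beside 4.07% of all genes tested (1.76% higher and 2.31% lower in LEC), and with so few calls nothing is read from the share. Fosl1 and Egr2 were not tested, since the probe set taken for each was too dim on most arrays. For Egr2 that probe set differed by 1.24. Its other probe set passed the filter in the fit of all probe sets, with the opposite sign (-2.02 ± 1.72, limma, adjusted p = 0.685). That probe set was above background on 1 of 4 LEC and 2 of 4 BEC arrays. With values raised to background its BEC to LEC ratio was 0.745, the same direction as the first probe set. The 2 Fosl1 probe sets, both too dim, differed by 2.03 and -0.48. By an unadjusted p under 0.05 there were 12 among the 39, beside 14.4% of all genes: 3 were higher in LEC (6.98% of all genes) and 9 lower (7.42% of all genes). Signals of the 2 cell types did not overlap at 3 members higher in LEC (7.69% of them, beside 5.19% of all genes) and at 7 lower in LEC (17.9%, beside 5.19%). The 7 were Fos, Fosl2, Jun, Zfp36, Socs3, Ier3 and Hspb1, and the 3 were Maff, Myc and Dusp2. The median difference, LEC minus BEC, was -0.22 over the members and 0.08 over all genes tested. All genes tested include many dimmer than most members. Over the 9290 genes of a stricter filter (60th percentile) the median was -0.05. Within mice 1 to 4 the median was -0.20, -0.46, -0.23 and -0.10 for the members, and 0.13, 0.08, 0.16 and 0.03 for all genes tested. No list test was made.

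**Figure D3:**
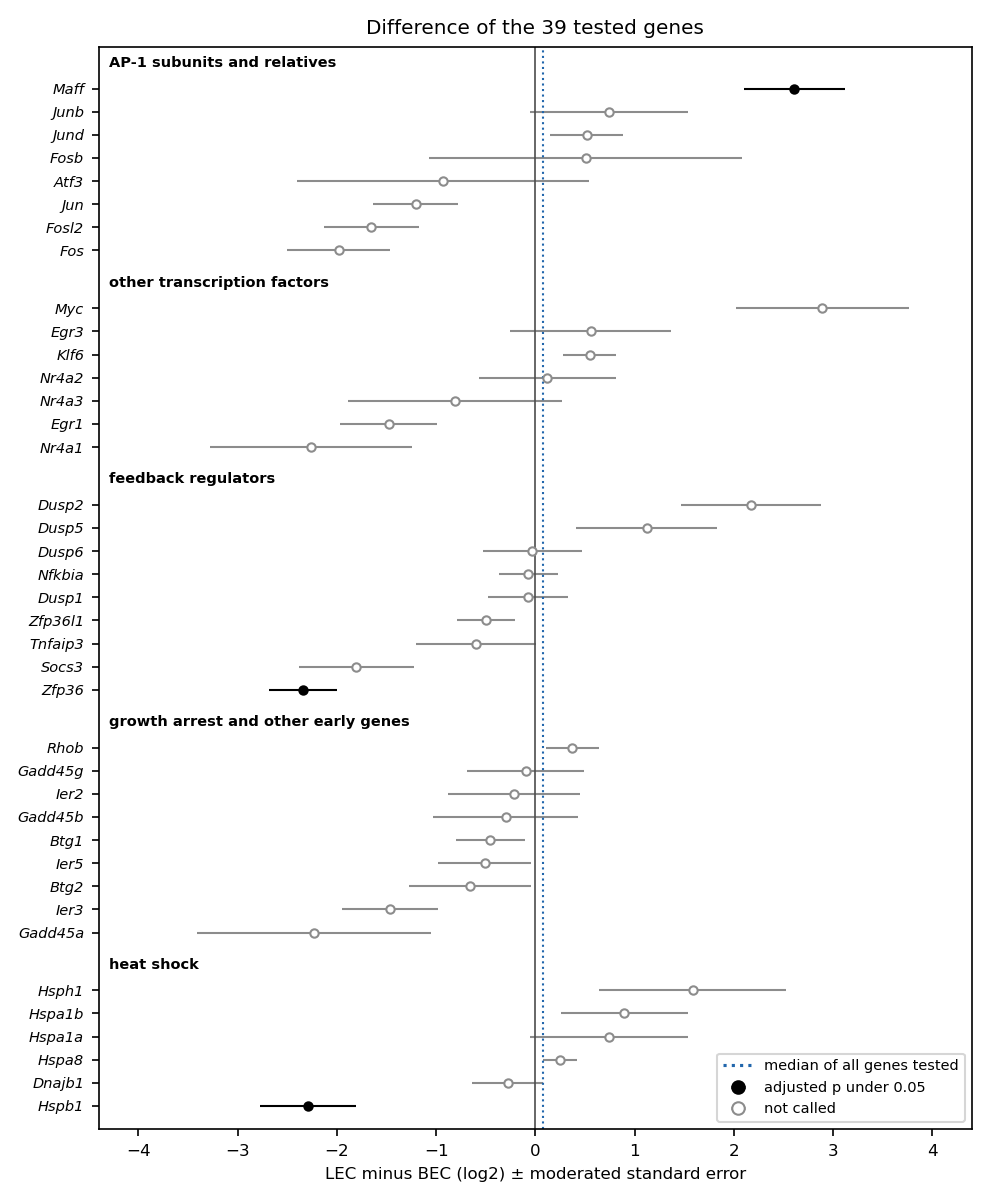
Difference LEC minus BEC on the log2 scale with its moderated standard error (horizontal axis) for the 39 tested genes, by role; filled points have an adjusted p under 0.05 and the dotted line is the median of all genes tested. Maff stands at 2.61, Zfp36 at -2.34 and Hspb1 at -2.29; all others are open.

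Of the 8 tested AP-1 subunits and relatives, Maff was called, higher in LEC, and no other was. Within mice, 3 of the 8 (Fos, Fosl2 and Jun) had the lower value in LEC in 4 of 4 mice, beside 11.1% of all genes tested, and 3 (Maff, Junb and Jund) had the higher value in LEC in 4 of 4 mice, beside 14.3%. Maff encodes a small MAF protein, a basic leucine zipper factor without an activation domain. Its log2 signal was 9.06, 10.21, 9.82 and 10.39 in LEC of mice 1 to 4, against 7.43, 6.62, 8.05 and 6.94 in BEC. Every LEC array was above every BEC array. The difference was 2.61 ± 0.51 (standard error, n = 4 each), 6.11-fold higher in LEC, with an adjusted p of 0.00906 by limma. The call depended on scaling: the adjusted p was 0.0508 when arrays were set to equal medians and 0.116 when set to equal hybridisation controls (0.00347 to 0.116 over all 17 alternatives), while the difference stayed above 2.2. The median of all genes moved with those scalings from 0.08 to -0.20 and -0.31, so differences are relative to the deposited scale.

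Fos, the founding member of the family, had log2 signals of 6.83, 7.10, 7.55 and 8.48 in LEC, against 10.07, 9.10, 8.96 and 9.77 in BEC. All 4 LEC arrays were below all 4 BEC arrays and each mouse showed the same direction. The fitted difference of -1.98 ± 0.52 just missed the threshold (limma, adjusted p = 0.0516). It was called under 4 of 17 alternatives, among them without LEC replicate 4 (adjusted p = 0.0338, and 0.0241 to 0.204 over all 17). Fosl2 (FRA-2) averaged 8.68 ± 0.82 in LEC and 10.33 ± 0.48 in BEC (SD, n = 4 each), without overlap and with an adjusted p of 0.0773. It passed the threshold under 1 of 17 alternatives, without LEC replicate 3 (adjusted p = 0.0427), and the others ran up to 0.279. For Jun, the main partner of Fos, the signals were 11.13, 10.99, 9.20 and 11.09 in LEC, against 12.12, 11.81, 11.20 and 12.11 in BEC. Jun was lower in LEC in 4 of 4 mice by -1.21 ± 0.42, with an adjusted p of 0.171 (0.0424 in the fit with mouse as a replicate block, and up to 0.361 over the 17 alternatives). Without LEC replicate 3, whose signal of 9.20 is the lowest, the difference was -0.74 with an adjusted p of 0.277.

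None of the other tested AP-1 genes was called (limma), and their signals overlapped between the cell types. Jund, the Jun gene that quiescent cells keep on, had signals of 12.03, 11.64, 12.41 and 12.24 in LEC, against 10.42, 11.50, 12.19 and 12.14 in BEC (adjusted p = 0.592). BEC replicates 3 and 4 lie among the LEC values, BEC replicate 2 lies just under them, and BEC replicate 1 is lowest. Junb, by its only probe set, was between 4.48 and 6.13 in LEC and between 3.76 and 5.98 in BEC (adjusted p = 0.749). Atf3, a stress-induced repressor of the ATF family, was above background on 2 of 4 LEC arrays and 3 of 4 BEC arrays. Fosb, an activity-induced Fos family gene, was above background on 2 of 4 LEC and 2 of 4 BEC arrays, and Fosl1 (FRA-1) on 1 of 4 LEC and 2 of 4 BEC arrays. Of the 9 genes of this role, 6 were above background on all 8 arrays.

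**Figure D4:**
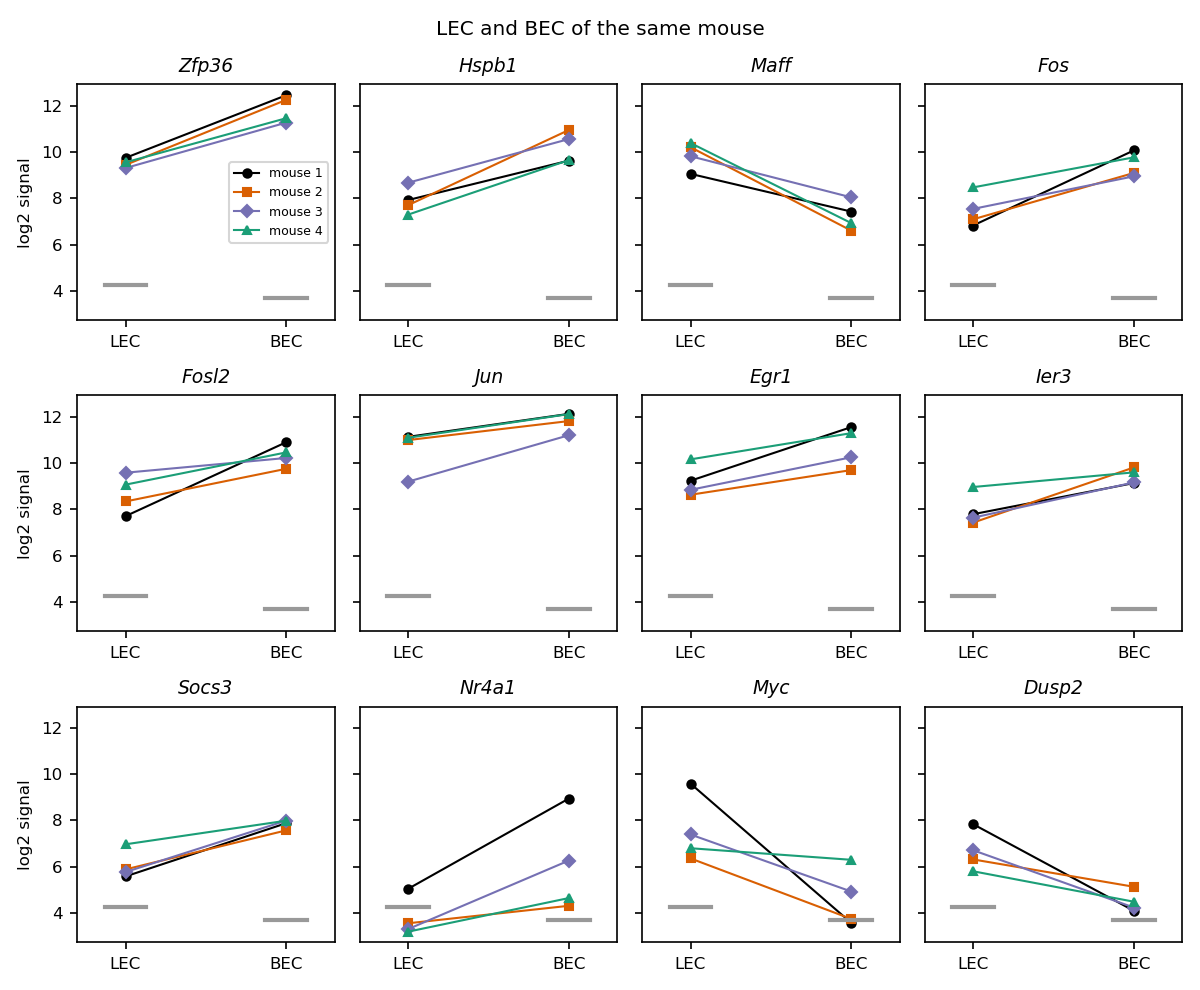
Log2 signal (vertical axis) in LEC and BEC of 12 genes, with a line for each mouse; grey bars are the mean background level of each cell type. All 4 lines of Zfp36, Hspb1, Fos, Fosl2, Jun, Egr1, Ier3, Socs3 and Nr4a1 run upward to BEC, and all 4 of Maff, Myc and Dusp2 run downward to it.

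In the role of other transcription factors 0 of 7 tested genes were called by limma (3 by an unadjusted p under 0.05: Myc, Egr1 and Nr4a1). Egr1, the zinc finger factor that follows MAP kinase signals, was bright throughout: 9.24, 8.64, 8.85 and 10.16 in LEC, against 11.55, 9.70, 10.25 and 11.29 in BEC. Its lowest BEC value lies below the highest LEC value, although LEC was lower within each of the 4 mice. The difference was -1.48 ± 0.49 (limma, adjusted p = 0.139, and 0.0545 in the fit with that block and up to 0.370 over the 17 alternatives). Its relatives reached background: Egr2 was above background on 2 of 4 LEC arrays and 1 of 4 BEC arrays, with 9.23 on LEC replicate 1 alone, and Egr3 on 4 of 4 LEC and 2 of 4 BEC arrays. Klf6, a zinc finger factor induced by vessel injury, was at 11.77, 11.48, 11.83 and 11.98 in LEC, against 11.36, 10.89, 11.00 and 11.61 in BEC. These ranges overlap, and the difference of 0.55 ± 0.27 was not called (adjusted p = 0.374).

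Myc, a transcription factor that drives growth, had signals of 9.59, 6.37, 7.40 and 6.80 in LEC, against 3.59, 3.76, 4.94 and 6.31 in BEC. LEC was higher in 4 of 4 mice without overlap, BEC replicate 1 lay below background, and the ratio was at least 6.32-fold with that value raised to background. The spread within groups was wide, and the adjusted p was 0.0949 by limma. Without raising values the difference was 2.89 ± 0.87, and it was 2.21 without LEC replicate 1, the highest, and 1.85 without both arrays of mouse 1. Nr4a1, an orphan nuclear receptor gene induced in the same first wave, was 5.05, 3.57, 3.32 and 3.21 in LEC, against 8.94, 4.32, 6.27 and 4.66 in BEC. It was above background on 1 of 4 LEC arrays and 4 of 4 BEC arrays and lower in LEC in every mouse, with an adjusted p of 0.328. Nr4a3 was near background, on 1 of 4 LEC and 3 of 4 BEC arrays above it.

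Nr4a2 gave different answers by probe set. Its brightest probe set was 7.80, 6.13, 5.43 and 6.81 in LEC, against 6.59, 7.19, 5.97 and 5.95 in BEC (difference 0.12 ± 0.69, adjusted p = 0.966). Another probe set was 3.27, 2.27, 3.04 and 2.97 in LEC, below background on all 4 arrays, against 5.94, 7.91, 6.11 and 7.16 in BEC. In the fit of all 23980 kept probe sets it was at least 5.73-fold lower in LEC with an adjusted p of 0.0115. A further one differed by -4.09 ± 1.34 without passing the test (adjusted p = 0.139), with LEC replicate 1 at 7.72 and the other LEC arrays at 3.04 or less. Those other LEC values lay below background, and with them raised to it this probe set was at least 4.41-fold lower in LEC. Whether the probe sets read different transcript ends was not tested.

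**Figure D5:**
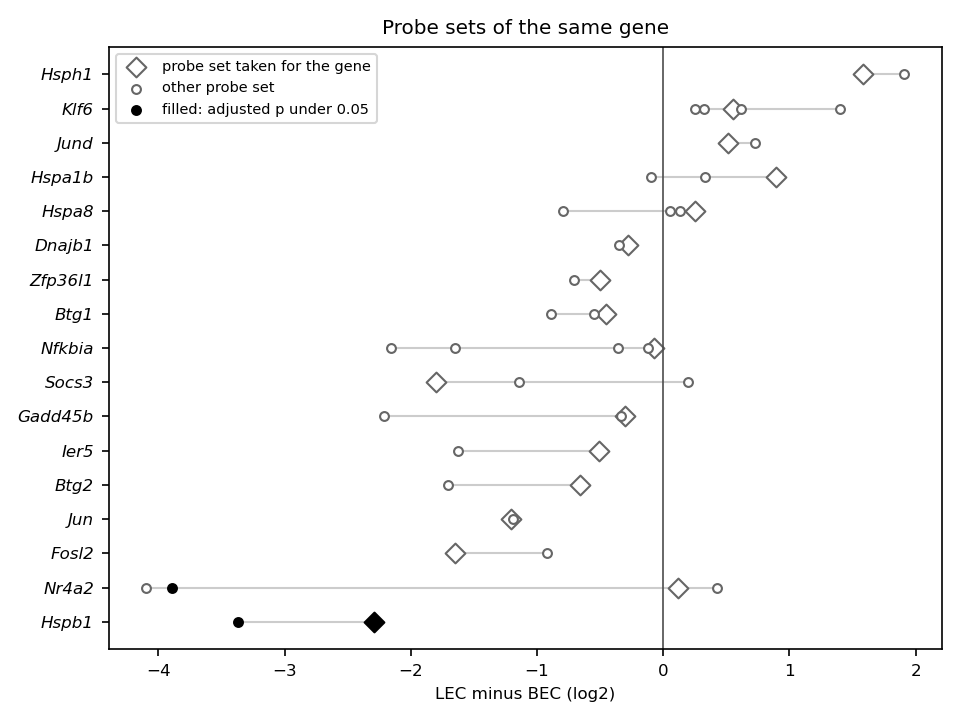
Difference LEC minus BEC on the log2 scale (horizontal axis) of each kept probe set of the 17 members with more than 1; diamonds are the probe set taken for the gene, circles the others, and filled symbols have an adjusted p under 0.05 in the fit of all probe sets. Both probe sets of Hspb1 are filled, and those of Nr4a2 run from -4.09 to 0.43, with values not raised to background.

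Over all members 71 of the 81 probe sets passed the filter, and 1 was called higher and 4 lower in LEC, beside 3.70% of the 23980 probe sets tested. Of the 17 members with more than 1 kept probe set, the probe sets of 4 (Nr4a2, Socs3, Hspa1b and Hspa8) had differences of both signs. The 2 probe sets of Jun gave -1.21 and -1.19, and those of Hsph1 1.59 and 1.91, so they were close to each other. Both Hsph1 probe sets were far lowest on BEC replicate 1 (5.3 and 5.7, with the other BEC arrays at 8.8 or more). Without that array the difference of Hsph1 was 0.31. The 5 of Klf6 ran from 0.25 to 1.40, all above 0, and none was called.

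The feedback regulators held the member of smallest adjusted p. Zfp36, whose protein binds AU-rich elements and hastens the decay of early mRNAs, was 9.75, 9.45, 9.31 and 9.56 in LEC, against 12.45, 12.25, 11.27 and 11.46 in BEC. The LEC values lay within 0.5 of each other and all of them far below the BEC values. Zfp36 was 5.06-fold lower in LEC (difference -2.34 ± 0.34, limma, adjusted p = 0.00121), by -2.70, -2.80, -1.96 and -1.90 in mice 1 to 4. It was called under all 17 alternatives tried, with adjusted p-values from 2.12e-04 to 0.00937. Its relative Zfp36l1 was above background on all arrays, averaging 11.09 ± 0.42 in LEC against 11.59 ± 0.25 for BEC (adjusted p = 0.480).

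None of the 4 phosphatase genes was called by limma. Dusp1, the nuclear phosphatase of p38, JNK and ERK, was 11.74, 10.69, 11.20 and 12.25 in LEC, against 12.38, 11.15, 11.87 and 10.77 in BEC. These overlap wholly (difference -0.07 ± 0.40, adjusted p = 0.963). Dusp6, the cytoplasmic phosphatase of ERK, was 9.23 ± 0.96 in LEC and 9.26 ± 0.21 in BEC (adjusted p = 0.990). Dusp2, an inducible nuclear phosphatase best known from lymphocytes, was 7.84, 6.32, 6.72 and 5.81 in LEC, against 4.11, 5.14, 4.25 and 4.50 in BEC. It did not overlap and was at least 4.20-fold higher in LEC with BEC replicate 1, below background, raised to it, but the test did not call it (adjusted p = 0.131). Dusp5, a nuclear phosphatase of ERK, was 6.64 ± 0.64 in LEC and 5.51 ± 0.96 in BEC (adjusted p = 0.530).

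Neither inhibitor of NF-κB was called. Nfkbia was 12.64, 11.41, 11.63 and 11.78 in LEC, against 12.37, 11.83, 11.65 and 11.88 in BEC (difference -0.07 ± 0.29, adjusted p = 0.950). Its other probe sets gave differences down to -2.16, none of them called. Tnfaip3 was 6.22 ± 0.56 in LEC and 6.82 ± 0.30 in BEC (adjusted p = 0.726). Socs3, the inhibitor of JAK and STAT signalling, was 5.59, 5.89, 5.78 and 6.97 in LEC, against 7.88, 7.57, 8.00 and 7.99 in BEC. The groups did not overlap, and the difference of -1.80 ± 0.58 missed the threshold (adjusted p = 0.125). The mean of its 3 probe sets gave -0.92 (adjusted p = 0.570). Without BEC replicate 1, 2 or 3 another of its probe sets became the brightest, and the difference was -1.25, -1.36 or -1.03 (adjusted p = 0.437 to 0.616).

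Of the 9 growth arrest and other early genes, limma called 0, and Ier3 alone had an unadjusted p under 0.05. Ier3, an early gene that modulates cell survival, was 7.80, 7.43, 7.65 and 8.97 in LEC, against 9.14, 9.81, 9.16 and 9.60 in BEC (difference -1.47 ± 0.48, adjusted p = 0.138). LEC replicate 4 came closest to the BEC values. Rhob was 11.44, 11.84, 11.69 and 12.11 in LEC, against 11.65, 11.27, 11.02 and 11.64 in BEC (adjusted p = 0.593). Btg1, an antiproliferative gene, was 9.68, 10.20, 10.47 and 9.78 in LEC, against 10.01, 10.63, 10.82 and 10.50 in BEC. Btg1 was lower in LEC in each mouse by less than the spread among arrays of either cell type (difference -0.46 ± 0.35, adjusted p = 0.629).

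Ier5, an early gene linked to heat shock factor 1, was 9.22 ± 0.61 in LEC and 9.73 ± 0.69 in BEC, and Ier2, a nuclear early response gene, was 6.32 ± 0.59 in LEC and 6.54 ± 0.80 in BEC. Btg2, the p53-responsive relative of Btg1, was 6.54 ± 0.60 in LEC and 7.20 ± 0.62 in BEC. Among the growth arrest and DNA damage genes, Gadd45g was 7.03 ± 0.72 in LEC and 7.13 ± 0.34 in BEC and Gadd45b 6.29 ± 1.20 in LEC and 6.59 ± 0.63 in BEC. Gadd45a was above background on 1 of 4 LEC and 3 of 4 BEC arrays, with 8.68 on BEC replicate 2. None of these 6 genes was called, with adjusted p-values from 0.431 (Gadd45a) to 0.967 (Gadd45g).

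All 6 heat shock genes were above background on all 8 arrays, and only the small heat shock protein gene Hspb1 was called. Hspb1 (HSP25 in the mouse), an actin-protecting chaperone, was 7.93, 7.71, 8.68 and 7.30 in LEC, against 9.63, 10.95, 10.56 and 9.65 in BEC. Every LEC array was below every BEC array. It was 4.90-fold lower in LEC (difference -2.29 ± 0.49, limma, adjusted p = 0.0151), and its second probe set gave -3.37 with an adjusted p of 0.0212. Without BEC replicate 2 or BEC replicate 3 the adjusted p was 0.0773 or 0.0604 (0.00502 to 0.0773 over all 17 alternatives).

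The inducible HSP70 genes Hspa1a and Hspa1b lie side by side and are nearly identical, so their probe sets may share signal. Hspa1a was 5.83, 7.94, 7.51 and 6.27 in LEC, against 4.60, 6.63, 5.66 and 7.69 in BEC (adjusted p = 0.747). Hspa1b was 7.64, 10.28, 9.74 and 10.75 in LEC, against 7.67, 9.37, 8.84 and 8.95 in BEC (adjusted p = 0.597). In both cell types the lowest value of both genes was that of mouse 1. Hsph1, the HSP110 exchange factor of HSP70, was 10.55, 11.03, 10.35 and 10.79 in LEC, against 5.26, 9.99, 9.96 and 11.16 in BEC, where mouse 1 was again lowest (adjusted p = 0.494).

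The constitutive chaperone gene Hspa8 (HSC70) was at 13.17, 13.09, 13.49 and 13.45 in LEC, against 13.02, 12.89, 13.21 and 13.07 in BEC. Its arrays spread by under 1 on the log2 scale, and the difference of 0.25 ± 0.17 was not called (adjusted p = 0.583). Dnajb1, the HSP40 partner of HSP70 and a target of heat shock factor 1, was 11.90, 11.10, 11.08 and 10.33 in LEC, against 11.37, 11.37, 10.86 and 11.92 in BEC (adjusted p = 0.801). Both were bright on all arrays and overlapped between cell types.

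Other genes of the same programmes were read from lists that share no gene with the 41. The 40 tested further immediate early and dissociation response genes had a median difference of -0.64. Over all genes tested it was 0.08, and -0.05 with the stricter filter. Of all genes tested, 1.76% were called higher and 2.31% lower in LEC. Of the 40, 0 were called higher and 2 lower. They were Irf1, a transcription factor gene, 6.36-fold lower (7.61 ± 0.95 in LEC and 10.28 ± 0.51 in BEC, adjusted p = 0.0108, and 0.0577 without BEC replicate 2), and the BMP target Id3 (7.50 ± 0.49 in LEC and 9.74 ± 0.56 in BEC, adjusted p = 0.0174). Id3 missed the threshold without LEC replicate 2, BEC replicate 2 or BEC replicate 4 (adjusted p = 0.0504 to 0.0865). In the fit with the replicate block Sgk1, a serum- and glucocorticoid-regulated kinase gene, was called as well (9.18 ± 0.78 in LEC and 10.90 ± 0.81 in BEC, difference -1.72 ± 0.49, adjusted p = 0.0428, and 0.0762 without the block). The flow-responsive factor gene Klf2 lay at 7.30 ± 0.30 in LEC and 9.13 ± 0.52 in BEC with an adjusted p of 0.0560. Sik1, Plk2, Id1, Jdp2 and Spry4 were also lower in LEC without overlap and were not called. Of all genes tested, 5.19% were lower and 5.19% higher in LEC without overlap. Cebpb was higher in LEC without overlap (9.02 ± 0.62 in LEC and 7.36 ± 0.52 in BEC, limma, adjusted p = 0.114). Cebpd was higher in LEC in 4 of 4 mice with overlap (limma, adjusted p = 0.308).

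The 24 further heat shock and chaperone genes had a median difference of -0.10. Of them 1 was called higher and 0 lower in LEC, beside 1.76% and 2.31% of all genes tested. The called gene was the small heat shock protein gene Hspb8, at 7.53, 7.27, 6.55 and 8.58 in LEC, against 1.51, 3.32, 5.40 and 5.37 in BEC. It was at least 6.98-fold higher with 2 of 4 BEC arrays above background (adjusted p = 0.0460). Hspb8 kept that call under 4 of 17 alternatives only, and its adjusted p was 0.0557 with the replicate block. Its difference of 3.58 was 2.79 without BEC replicate 1, and the mean of its probe sets gave 1.31 (adjusted p = 0.405). Hspe1 was lower in LEC without overlap (8.73 ± 0.58 in LEC and 9.82 ± 0.41 in BEC, limma, adjusted p = 0.258). Of 19 genes of the unfolded protein and integrated stress responses limma called 0 (median difference 0.23). Among them Atf5 and Ddit3 were higher in LEC without overlap (limma, adjusted p = 0.139 and 0.214), as were 5.19% of all genes tested. The 25 kinases and transcription factors upstream of the early genes had a median difference of -0.28. Of them 1 was called, lower in LEC, beside 2.31% of all genes tested. Elk3 was higher in LEC without overlap (11.76 ± 0.42 in LEC and 10.97 ± 0.33 in BEC, limma, adjusted p = 0.206). The called gene was Mrtfb, a coactivator of the serum response factor. Mrtfb was at 5.13, 8.57, 7.75 and 6.78 in LEC, against 10.82, 10.31, 9.59 and 10.05 in BEC (8.78-fold lower, adjusted p = 0.0162). It missed the threshold without BEC replicate 1, 2 or 4 (adjusted p = 0.0504 to 0.0660), with the mean of its probe sets (0.0735) and without both arrays of mouse 1 (0.0588). The difference of -3.13 was -2.49 without LEC replicate 1, the lowest, and -2.28 without both arrays of mouse 1.

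As a check of the labels, 6 of 6 LEC markers were called higher and 6 of 6 BEC markers lower in LEC, and all 5 endothelial markers were above background on all 8 arrays. Signals of other cell types varied between arrays. The summed linear signal of 8 epithelial markers was 265 to 8270 in LEC, highest in mouse 3, and 376 to 18730 in BEC, highest in mouse 3 and next in mouse 4. That of 6 fibroblast markers was 326 to 6247 in LEC, highest in mice 2 and 4, and 144 to 372 in BEC. That of 6 smooth muscle and pericyte markers was 119 to 269 in LEC and 808 to 1493 in BEC, led by Rgs5, which was itself lower in LEC (adjusted p = 0.00849). The sum of 10 leukocyte markers was 113 to 843 in LEC and 134 to 491 in BEC. Ptprc (CD45) was above background on 1 of 4 LEC and 2 of 4 BEC arrays, but Lyz2 on 4 of 4 LEC and 3 of 4 BEC arrays. Laptm5 was 8.92, 6.20, 2.98 and 8.89 in LEC, against 7.99, 5.75, 4.14 and 4.38 in BEC. The sum of the 4 nerve and glia markers on the array (of 5 listed) was 62.7 to 228 in LEC and 47.0 to 117 in BEC. Of all these markers, Elavl4, a neuronal one, was below background on all 8 arrays.

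Hspb1 is also expressed in epithelium and smooth muscle. Hspb1 was 7.93, 7.71, 8.68 and 7.30 on LEC replicates 1 to 4, where the epithelial sum was 265, 1576, 8270 and 619. On LEC replicate 2 that sum was led by Car1 alone (10.41), with Krt19 at 6.93, Epcam at 4.43 and Krt8 at 3.56. On BEC replicates 1 to 4 Hspb1 was 9.63, 10.95, 10.56 and 9.65, where the epithelial sum was 376, 518, 18730 and 5192. The part of epithelial RNA in the Hspb1 difference was not tested. The smooth muscle and pericyte sum, led by Rgs5, separated LEC from BEC as Zfp36, Hspb1 and Fos did. Of its markers only Rgs5 and Acta2 were lower in LEC without overlap. Signals of Myh11, Tagln, Des and Pdgfrb overlapped, and Pdgfrb was higher in LEC in 4 of 4 mice (means 5.07 and 3.25). The part of smooth muscle and pericyte RNA in the differences of Zfp36, Hspb1 and Fos was not tested. Maff was 9.06 in LEC replicate 1 and 9.82 in LEC replicate 3, where the fibroblast sum was 326 and 544, and 10.21 and 10.39 in LEC replicates 2 and 4, where it was 6247 and 4365. On the BEC arrays the fibroblast sum was 144 to 372 and Maff was at most 8.05. The part of fibroblast RNA in the Maff difference was not tested. The leukocyte sum was 843, 270, 113 and 710 on LEC replicates 1 to 4, and 491, 134, 320 and 167 on BEC replicates 1 to 4. LEC replicate 1, where that sum was highest, also had the highest signals of Dusp2 (7.84), Myc (9.59) and Egr2 (9.23). On LEC replicate 4, with the next highest sum, these genes were at 5.81, 6.80 and -0.25. Of all genes tested, 34.3% had their highest LEC value on LEC replicate 1. The part of leukocyte RNA in these values was not tested. As a sign of RNA quality, the 3′ minus 5′ signal of Actb control probe sets was -0.42 to -0.08 in LEC and -0.63 to 0.25 in BEC, and that of Gapdh 1.14 to 3.87 in LEC and 2.68 to 3.62 in BEC. These ranges overlapped.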

How the data were processed

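The deposited table holds log2 signals of 45101 probe sets, 1 column per array, and MAS5 is named in the submitters' processing notes without a version. The log2 scale and a common 2% trimmed mean of the linear signals (100.04 on every array) were read from the values. Probe sets were named from the platform annotation and updated through the gene number to RefSeq symbols. The members and lists were chosen with earlier results of these data known.

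For each gene the probe set of highest mean was kept where it exceeded its array's 40th percentile on at least 4 of 8 arrays. Then limma 3.58.1 in R 4.3.3 was fitted to 13259 genes with cell type as the only term (intensity trend, two-sided, Benjamini-Hochberg, called at an adjusted p under 0.05). Where a value lay below background, ratios use values raised to it and read "at least". LEC and BEC pair by mouse per the series design. Same-mouse deviations correlated at 0.142, 0.0776, 0.181 and 0.0510. Members given per array are the called ones, the 2 brightest of each role, Hspa1a and Hspa1b, and others chosen after their values were seen. Arrays of 4 mice per cell type limit the precision.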

Additional observations from a re-analysis of the deposited data

Results flagged for a closer look

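Among the 82 sets of 4 values (41 genes in LEC and in BEC), 4 held a single array far from the other 3, with a gap above Dixon's 95% critical value, and chance alone marks about 1 set in 20. Jun was 9.20 in LEC replicate 3, against 10.99 to 11.13 on the other LEC arrays. Gadd45b was 8.08 and Btg2 7.44 on that same array, above 5.56 to 5.75 and 6.12 to 6.32 on the others. LEC replicate 3 also had the highest epithelial sum among LEC arrays (8270). On BEC replicate 3, where that sum was 18730, Jun was lowest (11.2), Gadd45b highest (7.37) and Btg2 lowest (6.37) among BEC arrays. On BEC replicate 4, where it was 5192, these genes were at 12.11, 5.84 and 7.57. The part of epithelial RNA in these values was not tested. Atf3 was -0.29 in BEC replicate 3, below background, against 4.74 to 5.36 on the other BEC arrays.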

How the results depend on the processing

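Over all genes 234 were called higher and 306 lower in LEC. With equal hybridisation controls 123 were higher, without mouse 1 (both arrays, chosen after seeing the data) 191 were lower, and leaving out 1 array gave 136 to 197 higher and 164 to 318 lower. Among the members 1 was higher and 2 lower. With equal array medians or equal hybridisation controls 0 were higher. Leaving out 1 array gave 1 higher each time and 1 to 3 lower, with 1 without BEC replicate 2 or 3. The further lists together had 1 higher and 3 lower. They had 0 higher without the filter, with equal array medians, equal hybridisation controls, quantile normalization, the replicate block or the mean of probe sets (then 5 lower), and without mouse 1. Without 1 array they had 0 to 1 higher and 1 to 4 lower. With the mouse as a replicate block 236 and 298 genes were called, Jun and Sgk1 were added, Hspb8 was lost, and no other call named here changed. Members above background on all arrays numbered 29 to 33. With equal array medians the median within-mouse difference of the members was -0.55 in mouse 1 and -0.72 in mouse 3, beside -0.22 and -0.33 over all genes tested.

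Of 39 members 28 kept their direction under every alternative, among them the 3 called. The 11 others, none called, had differences from -0.81 (Nr4a3) to 0.51 (Fosb). Raising values to background turned Fosb to -0.16 and Nr4a3 to 0.15. Equal array medians gave -0.16 for Nr4a2 and -0.0270 for Hspa8, equal hybridisation controls -0.27 for Nr4a2, -0.14 for Hspa8 and -0.0154 for Rhob, and quantile normalization 0.0181 for Dusp6 and -0.0692 for Hspa8. The mean of probe sets gave -1.34 for Nr4a2, 0.37 for Tnfaip3 and -0.0896 for Hspa8. Without mouse 1 Nr4a2 was -0.25, Dusp1 0.11 and Dusp6 0.28. Leaving out 1 array gave -1.21 to 1.69 for Fosb, -0.30 to 0.49 for Nr4a2, -0.34 to 0.20 for Dusp1, -0.46 to 0.24 for Dusp6, -0.33 to 0.0818 for Nfkbia, -0.60 to 0.0625 for Ier2 and -0.31 to 0.22 for Gadd45g. The cause of these changes was not tested. Dim genes near background limit what the arrays can separate.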
